A study of Mus musculus with 9 samples.

Results

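The 711 genes described here are transcripts of the mouse genome that GENCODE vM21 annotates as TEC, its class for transcripts that still await experimental proof, and that were seen in testis RNA. They were chosen by the counts themselves: a TEC gene was kept where its counts summed to at least 60 over the 9 libraries. The count table held 55401 genes, of which 3214 were TEC genes. A further 1191 TEC genes had a sum of 1 to 59, and 1312 had no count. The libraries were made from polyadenylated RNA of wild-type mouse testis, and the sources used here do not give the age of the animals. There were 3 input libraries (input RNA, no antibody), 3 IgG libraries (RNA recovered with control IgG) and 3 acRIP libraries (RNA recovered with an antibody against N-4-acetylcytidine, ac4C). The labels do not say whether the 3 libraries of a group came from separate animals or separate precipitations, so the p-values below measure only the spread between these libraries, which may be technical.

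TEC is a provisional class. Its genes are mostly unspliced stretches of the genome to which full-length cDNAs or clusters of polyadenylated ESTs were aligned, so that transcription is supported but neither a protein nor a regular non-coding gene has been assigned. ac4C is an acetylated cytidine that the acetyltransferase NAT10 writes into RNA, and acRIP asks which transcripts the antibody recovers more than control IgG does. All 9 libraries started from oligo(dT) selection and were made by Smart-seq2, in which reverse transcription is primed by oligo(dT) and the cDNA is amplified. Oligo(dT) pairs with a poly(A) tail, and it can also pair with a run of A inside a longer RNA. A genuine cleavage site usually follows the signal AATAAA by a short distance.

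For this reason the 3′ ends are shown first. Each line gives the last 50 bases of a TEC gene and the 50 bases that follow it in the genome, on the strand of the gene, from the RefSeq copy of GRCm38.p6 (mm10). Capitals mark the 20-base window with the most A after the end, where that window held at least 12 A, and AATAAA where it lay in the last 50 bases. The first set holds the 4 TEC genes with the highest acRIP over IgG values.
Gm47087 (chr9:13312397-13312496, plus strand): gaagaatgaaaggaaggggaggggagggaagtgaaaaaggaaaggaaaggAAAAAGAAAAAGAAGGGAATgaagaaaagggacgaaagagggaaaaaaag
Gm42856 (chr6:24657468-24657567, minus strand): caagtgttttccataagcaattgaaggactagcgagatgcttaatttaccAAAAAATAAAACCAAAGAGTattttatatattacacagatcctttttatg
Gm43197 (chr6:3336722-3336821, minus strand): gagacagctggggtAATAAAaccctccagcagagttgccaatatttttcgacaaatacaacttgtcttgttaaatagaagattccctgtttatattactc
Gm43648 (chr5:48624619-48624718, minus strand): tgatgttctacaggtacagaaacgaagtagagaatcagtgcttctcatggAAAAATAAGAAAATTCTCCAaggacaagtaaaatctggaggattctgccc

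The second set holds the 4 TEC genes with the lowest acRIP over IgG values.
Gm45223 (chr7:90137580-90137679, plus strand): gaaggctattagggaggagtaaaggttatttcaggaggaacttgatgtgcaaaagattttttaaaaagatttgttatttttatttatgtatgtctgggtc
Gm43200 (chr5:45769970-45770069, minus strand): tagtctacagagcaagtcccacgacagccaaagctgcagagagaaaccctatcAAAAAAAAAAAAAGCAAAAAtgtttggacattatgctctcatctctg
4930477O15Rik (chr5:121504552-121504651, plus strand): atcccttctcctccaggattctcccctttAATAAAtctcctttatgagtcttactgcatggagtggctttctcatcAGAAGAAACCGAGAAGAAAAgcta
Gm43748 (chr6:34860888-34860987, plus strand): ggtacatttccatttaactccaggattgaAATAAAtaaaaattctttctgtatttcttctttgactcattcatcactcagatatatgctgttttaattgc

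The third set holds the 4 TEC genes with the highest IgG over input values.
Gm37702 (chr1:13296986-13297085, minus strand): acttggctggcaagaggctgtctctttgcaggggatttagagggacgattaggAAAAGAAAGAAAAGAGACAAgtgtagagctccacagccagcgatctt
Gm49284 (chr15:31623986-31624085, plus strand): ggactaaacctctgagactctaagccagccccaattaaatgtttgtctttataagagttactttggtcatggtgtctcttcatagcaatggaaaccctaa
Gm42867 (chr5:34575507-34575606, plus strand): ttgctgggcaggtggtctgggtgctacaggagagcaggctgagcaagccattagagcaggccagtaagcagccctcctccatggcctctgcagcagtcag
Gm38099 (chr17:31532241-31532340, minus strand): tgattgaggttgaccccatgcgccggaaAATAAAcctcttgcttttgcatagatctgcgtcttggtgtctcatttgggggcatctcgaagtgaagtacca

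The last set holds the 3 TEC genes with the highest mean level over the 9 libraries.
1700097M23Rik (chr6:81893768-81893867, minus strand): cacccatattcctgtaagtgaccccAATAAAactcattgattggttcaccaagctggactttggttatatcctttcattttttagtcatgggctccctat
AY702102 (chr2:169961965-169962064, minus strand): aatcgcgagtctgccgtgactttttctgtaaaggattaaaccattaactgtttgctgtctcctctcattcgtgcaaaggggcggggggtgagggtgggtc
Gm41109 (chr14:24425114-24425213, minus strand): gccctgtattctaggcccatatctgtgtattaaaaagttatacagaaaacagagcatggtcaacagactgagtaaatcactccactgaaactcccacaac

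An A-rich window followed the end of Gm47087, Gm42856, Gm43648, Gm43200, 4930477O15Rik and Gm37702, and AATAAA lay near the end of Gm43197, 4930477O15Rik, Gm43748, Gm38099 and 1700097M23Rik. Over the whole class, an A-rich window of this kind began and ended within 50 bases after the end of 306 of the 711 TEC genes (43.0%). The share was 42.4% in the 2503 TEC genes below 60 counts, which that threshold left out, 14.3% at the ends of all 55104 annotated genes that could be searched, 13.4% for lincRNA genes with at least 60 counts and 6.56% for protein-coding genes with at least 60 counts. AATAAA was found in the last 50 bases of 204 TEC genes (28.7%), against 19.7% of the TEC genes below 60 counts, 40.1% of the lincRNA genes and 63.3% of the protein-coding genes with at least 60 counts. Both searches read the strand of the gene only. TEC genes with enough counts to be kept thus had as many A-rich windows after their ends as the ones left out, and more often AATAAA before their ends. These are descriptions of the annotated ends, and a match is not a mapped cleavage or priming site.

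Of the 711 genes 693 had a single exon and 18 had more. Their median length was 2200 bases, with a range of 155 to 30942, and the median of all other TEC genes was 1881. By position, 307 (43.2%) lay in an intron of a protein-coding gene on the same strand, 162 (22.8%) overlapped a gene on the opposite strand, 25 (3.5%) overlapped an exon of another gene on the same strand, 19 (2.7%) began within 5 kb downstream of a protein-coding gene on its strand, and 198 (27.8%) lay in none of these positions. Introns held a similar share, 45.8%, of all 3214 TEC genes. Chromosomes 1, 5, 6, 3 and 7 held 120, 109, 88, 72 and 71 of the genes. In RefSeq, 602 of the 711 had no base in an annotated exon of the same strand, 69 had at least 50% of their bases in such exons, and 45 were listed under the same symbol. Of those 45, RefSeq lists 36 as lncRNA, 2 as misc_RNA, 1 as a transcribed pseudogene and 6 (4933440N22Rik, Gm9839, Gm10461, Gm44064, Gm10209 and Gm30698) as protein-coding.

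The libraries held 22023925 to 31340090 counts (input), 14647542 to 18786779 (IgG) and 16025779 to 18639134 (acRIP). Genes with at least 1 count numbered 28552 to 29642 in input, 26204 to 26874 in IgG and 22206 to 22402 in acRIP. Ribosomal RNA-like and mitochondrial genes took 1.31 to 1.33% of the counts in input, 6.70 to 7.24% in IgG and 11.4 to 12.6% in acRIP. Transcripts of germ cells (Prm1, Prm2, Tnp1, Tnp2, Odf1, Acrv1, Sycp3, Ddx4 and Dazl, 9 of 9 with counts in every library) summed to 18013 to 23825 CPM. CPM are counts per 1000000 of the library size after TMM normalization. Transcripts of Sertoli, Leydig and smooth muscle cells summed to 687 to 826.3 CPM. Most of this sum was on the Leydig cell markers Cyp17a1, Insl3 and Star (means of 409.9, 247.5 and 99.28 CPM in input). The Sertoli cell markers Sox9 and Amh had 174 to 327 and 0 to 22 counts per library. Of 4 markers of other tissues (Alb, Ins2, Myh6 and Krt5), which summed to 0.645 to 7.32 CPM, Krt5 was at 0 in 8 libraries and Myh6 made up most of the sum. Fewer cells of a type and less RNA per cell cannot be told apart in such bulk samples.

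The level of the TEC genes was low. The median summed count was 168 and the highest 15598, and the 10 highest genes held 24.1% of all counts on the class. On a scale that corrects for length (CPM per kilobase, averaged over the 9 libraries) the median was 0.519, 220 genes reached 1 and 34 reached 10. The median was lowest in the introns and in exons of other genes (0.352 and 0.27), and higher on the opposite strand (0.859) and in the remaining positions (0.808). Just inside the threshold stood Gm36401, Gm43829 and Gm43045, each with a sum of 60, and just outside it 4930566N20Rik (59), Gm43290 (59) and Gm37570 (58). Without the input libraries 113 of the 711 would have fallen under 60, without the IgG libraries 198 and without the acRIP libraries 144. In the counts from 1 to 20, 87.1% were even numbers, so a count is likely to be 1 mate of a read pair, and such counts stand for fewer molecules than their size.

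The highest TEC gene, 1700097M23Rik, had 2150, 1352 and 1394 counts in input, 1559, 1915 and 2016 in IgG and 1607, 1755 and 1850 in acRIP. Its level was 62.7 ± 3.93 CPM in input, 105 ± 3.50 in IgG and 105 ± 7.42 in acRIP (SD, n = 3), so that both recovered fractions lay above input and did not differ from each other by more than the spread (acRIP over IgG, log2 fold change -0.01 ± 0.06 SE, adjusted p = 0.925, edgeR). AY702102, on the opposite strand of the zinc finger gene Tshz2, went the other way, with 3756, 2582 and 2420 counts in input, 795, 1141 and 1227 in IgG and 1007, 1239 and 1152 in acRIP. Tshz2 itself had 179, 99 and 98 counts in input, 139, 156 and 171 in IgG and 24, 14 and 28 in acRIP, so it was lower in acRIP than in both but not in IgG than in input (IgG over input, log2 0.91 ± 0.22 SE). AY702102 differed between IgG and input by -0.90 ± 0.07 (log2, SE), which stood below the 2-fold limit for a call. Gm41109 likewise had its highest values in input (2187, 1532 and 1680 counts against 719 to 1014 in IgG and 786 to 849 in acRIP).

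4921513H07Rik was the TEC gene among the 10 highest that differed most between input and the recovered fractions. It had 385, 213 and 254 counts in input, 585, 1021 and 881 in IgG and 677, 738 and 700 in acRIP, and was called higher in IgG (log2 fold change 2.11 ± 0.11 SE, adjusted p = 1.98e-17) and in acRIP (1.96 ± 0.11, adjusted p = 1.19e-16) than in input by edgeR. Gm17611 (1.31 in both comparisons) and 4930413G21Rik (1.19 in IgG and 1.38 in acRIP, on the opposite strand of Rbbp6, whose protein takes part in 3′ end formation) were also called higher in both. Rbbp6 itself was called higher in both as well (1.48 in IgG and 1.73 in acRIP). 1700016A09Rik was called in acRIP against input only (1.06 against 0.84 for IgG over input), and the difference between its 2 recovered fractions was 0.22 ± 0.09. Gm6653, 1700008A23Rik (wholly within RefSeq exons of Cep70) and 4930573C08Rik were called in no comparison. None of the 10 highest was called between acRIP and IgG, and their log2 differences there ran from -0.18 to 0.22.

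**Figure D1:**
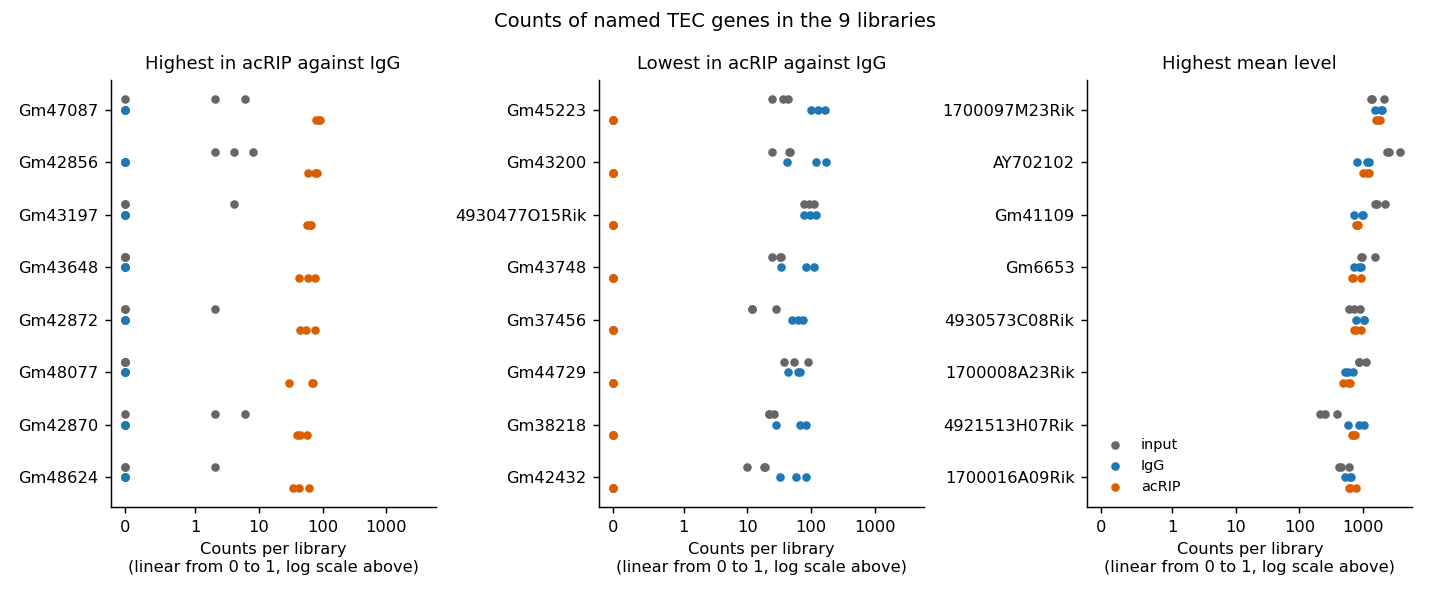
Counts per library (horizontal axis, linear from 0 to 1 and logarithmic above) of the 8 TEC genes highest in acRIP against IgG, the 8 lowest, and the 8 with the highest mean level. Each point is 1 library, in grey for input, blue for IgG and orange for acRIP. In the left panel the IgG points lie at 0, in the middle panel the acRIP points lie at 0, and in the right panel the 3 groups lie within the same order of magnitude.

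As a share of each library, counts on the 711 genes made up 0.165 ± 0.00156% in input, 0.217 ± 0.00559% in IgG and 0.216 ± 0.00462% in acRIP (SD, n = 3). The 3 input libraries lay between 0.163 and 0.167%, and each was below the 6 recovered libraries, which lay between 0.211 and 0.222%. By an exact two-sided permutation test the difference from input had p = 0.1 for IgG and for acRIP, the smallest p that 3 against 3 libraries allow (0.142 after adjustment over 27 comparisons of this kind), and acRIP against IgG had p = 0.9. The share on TEC genes in introns was 0.025 ± 0.0005% in input, 0.0538 ± 0.00285% in IgG and 0.0552 ± 0.00215% in acRIP, with a ratio of 2.15 for IgG over input. The share on opposite-strand genes was 0.0617%, 0.0651% and 0.0634% (ratio 1.06). TEC genes with an A-rich window after the end took 0.0319 ± 0.000314%, 0.0699 ± 0.00266% and 0.0697 ± 0.00234% (ratio 2.19), and the others 0.133 ± 0.00131%, 0.147 ± 0.00296% and 0.147 ± 0.00246% (ratio 1.10). The share in the remaining positions was 0.0698%, 0.0865% and 0.0879% (ratio 1.24). The gain of IgG over input was 0.0519 percentage points for all 711 genes. It was 0.0288 for intronic genes, 0.0167 in the remaining positions and 0.0380 for genes with an A-rich window. On these totals the gain over input was of like size with and without the ac4C antibody. With ribosomal RNA-like and mitochondrial genes left out of the total, the shares were 0.167% in input, 0.233% in IgG and 0.246% in acRIP. On that total the gain was larger in acRIP than in IgG, and this difference was not tested. The genes were chosen by these same counts. Without the IgG libraries 198 would have missed the threshold, without acRIP 144 and without input 113. What this choice added to the gain was not tested.

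Gene by gene, 687 of the 711 passed the filter on low counts and were tested with edgeR among 22510 genes, and 24 did not pass. A gene was called where its adjusted p was under 0.05 and its fold change over 2. In IgG against input, 274 TEC genes (39.9%) were higher, where 13.5% of all genes tested were, and 48 (6.99%) were lower, where 7.22% were. The median log2 difference was 0.74, against -0.01 over all genes tested. The share called higher was 7.44% in lincRNA genes, 10.9% in processed pseudogenes and 13.0% in protein-coding genes that also had at least 60 counts. Because 198 of the TEC genes would have missed the threshold without their IgG counts, the count was repeated for the 355 TEC genes that had at least 60 counts without the libraries of any 1 group. Of these, 125 (35.2%) were higher in IgG than in input and 18 (5.07%) lower.

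The excess was present at each level of counts. Among genes with a sum of 60 to below 200, 43.5% of the TEC genes tested were higher in IgG than in input, against 10.5% of lincRNA and 15.2% of protein-coding genes. From 200 to below 1000 the shares were 40.7%, 8.43% and 16.6%, and from 1000 upwards they were 18.3%, 3.37% and 11.4%.

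By position, 163 of 294 intronic TEC genes tested (55.4%) were higher in IgG than in input, with a median log2 difference of 1.67. In the other positions this was so for 9 of 19 downstream genes (47.4%), 52 of 160 opposite-strand genes (32.5%), 7 of 22 genes in exons of another gene (31.8%) and 43 of 192 in the remaining positions (22.4%, median 0.16). With the 355 genes that kept at least 60 counts without any 1 group, 68 of 112 intronic genes (60.7%) and 22 of 124 in the remaining positions (17.7%) were higher. By 3′ sequence, 169 of 294 TEC genes with an A-rich window after the end (57.5%) and 105 of 393 without one (26.7%) were higher. The shares also differed by the window within each position: among intronic genes the shares were 61.9% with and 41.3% without the window, on the opposite strand 60.6% and 25.2%, and in the remaining positions 37.0% and 17.8%. With the 355 genes, 76 of 120 with the window (63.3%) and 49 of 235 without it (20.9%) were higher. Within positions these were 53 of 74 and 15 of 38 in introns, 9 of 16 and 18 of 82 on the opposite strand, and 10 of 24 and 12 of 100 in the remaining positions. Of the genes called higher in IgG than in input 61.7% had the window, and of those not called 29.6%. By length, 24.6% of the TEC genes under 1000 bases, 37.8% of those of 1000 to below 3000 bases and 54.5% of the longer ones were called higher. Length also differed by position, with a median of 2438 bases in introns, 1930.5 on the opposite strand and 1679.5 in the remaining positions. The part of internal priming, of unspliced RNA and of length in these shares was not tested.

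**Figure D2:**
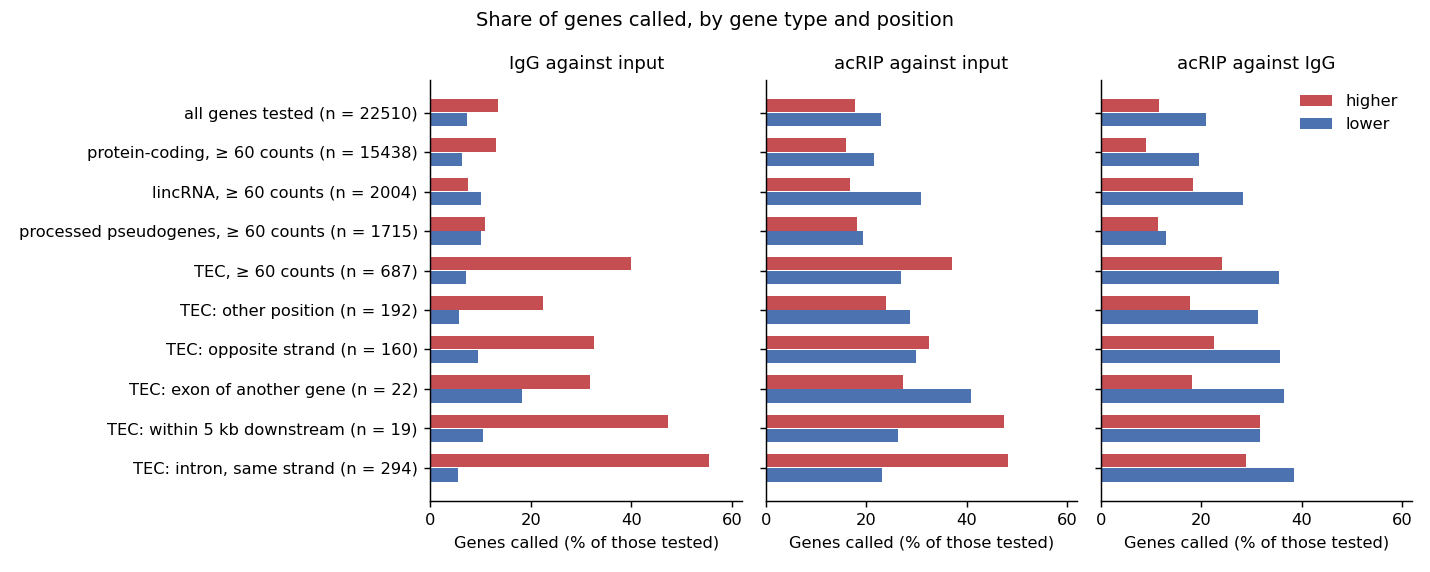
Share of the genes tested (horizontal axis, %) that were called higher (red) or lower (blue) in each of the 3 comparisons, for all genes, 3 other gene types with at least 60 counts, the TEC genes, and the TEC genes by position. In IgG against input the red bar reaches 39.9% for TEC genes and 55.4% for the intronic ones, against 13.5% for all genes.

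**Figure D3:**
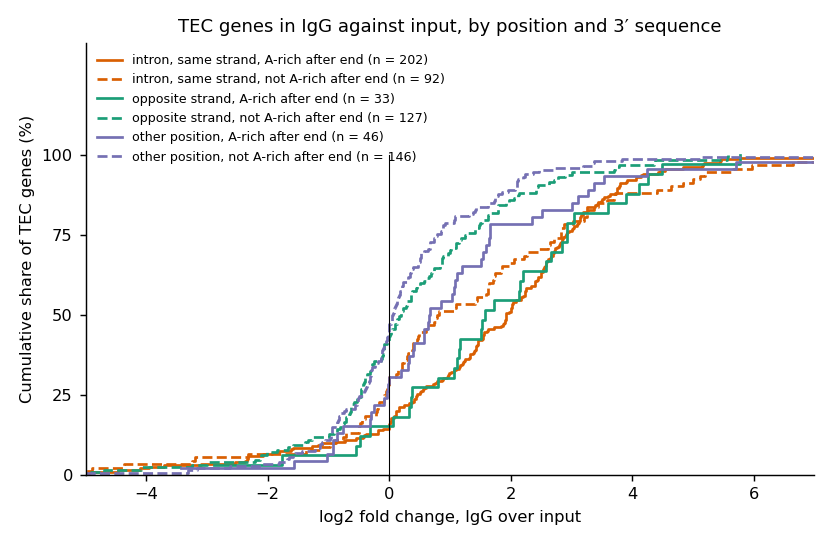
Cumulative share of TEC genes (vertical axis, %) by log2 fold change of IgG over input (horizontal axis, from -5 to 7), for 3 positions, with solid lines for genes with an A-rich window in the 50 bases after the end and dashed lines for genes without. The solid lines lie to the right of the dashed lines of the same colour over most of their course.

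The genes with the highest IgG over input values had no count in the other 2 groups. Gm37702, in an intron of the nuclear receptor coactivator gene Ncoa2, had 32, 38 and 32 counts in IgG and 0 in each input and acRIP library. Against a floor of 3 counts in each input library this is at least 16.5-fold higher (at least 8.25-fold with a floor of 6, for 3 read pairs). Ncoa2 itself was not called (log2 difference 0.27 ± 0.08). Gm49284, just downstream of Fam173b, had 34, 31 and 36 counts in IgG and none elsewhere, Gm42867, in the adducin gene Add1, had 21, 41 and 18, Gm38099 had 20, 18 and 28, and Gm42466, in the flippase gene Atp8a1, had 12, 28 and 24. In these 5 genes the IgG libraries were alone in having counts, and the floor gave at least 10.02- to 16.5-fold. They entered the class through those counts alone, so the values are a description, without a test.

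Among TEC genes that reached 10 counts in each of the 9 libraries, which were picked out after their values had been seen, the rise could be measured rather than bounded. Gm49599, which overlaps an exon of the Golgi protein gene Golgb1, had 16, 22 and 18 counts in input, 155, 232 and 224 in IgG and 92, 132 and 118 in acRIP. It was higher in IgG than in input by 3.98 ± 0.25 (log2, SE, adjusted p = 4.61e-15, edgeR), while Golgb1 was higher by 0.89 ± 0.10. Gm45809, at the kinase gene Nek1, had 22, 24 and 19 counts in input, 70, 106 and 108 in IgG and 88, 90 and 105 in acRIP, a rise of 2.66 ± 0.28 in IgG, and Nek1 differed by -0.21 ± 0.09. In both genes the 6 recovered libraries lay above the 3 input libraries.

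Few TEC genes were lower in IgG than in input. Gm48090 had 36, 38 and 35 counts in input and 0 in the other 6 libraries, at least 8.29-fold lower in IgG against the floor of 3 counts (at least 4.14-fold with 6), and it entered the class through its input counts alone. Of the TEC genes that reached 10 counts in each library, Gm43784 (198, 114 and 110 counts in input, 12, 22 and 32 in IgG) differed by -2.10 ± 0.34 and Gm44103, on the opposite strand of Washc2, by -1.67 ± 0.16. Gm44103 had 554 to 629 counts in input, 97 to 161 in IgG and 107 to 168 in acRIP. Its neighbour on the other strand, Washc2, a subunit of the WASH complex on endosomes, had 206 to 333 counts in input, 57 to 92 in IgG and 2 to 14 in acRIP. Whether the counting used strand is not stated, and the Smart-seq2 procedure does not mark it. Reads of opposite-strand pairs such as Gm44103 and Washc2, AY702102 and Tshz2, or 4930413G21Rik and Rbbp6 therefore cannot be told apart.

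Between acRIP and IgG, the comparison that the ac4C antibody is meant for, 165 TEC genes (24.0%) were higher in acRIP, where 11.5% of all genes tested were, and 244 (35.5%) were lower, where 20.9% were (141 TEC genes with all counts halved). The median log2 difference was -0.18, against -0.09 over all genes. At like counts the shares were nearer to those of other genes. With a sum of 60 to below 200, 23.2% of the TEC genes were higher and 46.9% lower, against 22.1% and 50.2% of lincRNA genes and 16.6% and 55.6% of protein-coding genes. From 200 to below 1000 they were 31.1% and 26.1%, against 23.7% and 28.7% and 20.4% and 35.3%. From 1000 counts upwards 3 of 71 TEC genes were higher and 5 lower, 4.23% and 7.04%, against 7.71% and 7.71% of lincRNA genes and 3.83% and 7.91% of protein-coding genes. Of the 165 called higher, 100 would have been under 60 counts without the acRIP libraries, and of the 244 called lower, 135 without the IgG libraries. Of the 355 TEC genes with at least 60 counts without any 1 group, 65 (18.3%) were higher and 78 (22.0%) lower.

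Much of this comparison was between counts and no counts. No count in any acRIP library was found for 139 TEC genes, in any IgG library for 34 and in any input library for 32. The zeros came together within a group: in acRIP, 139 genes were at 0 in all 3 libraries, 35 in 2 and 26 in 1. Of the 139, 91 had at least 10 counts in each IgG library and 57 at least 10 in each input library. In the other direction, 33 genes had no count in IgG and at least 10 in each acRIP library. Of the 244 genes called lower, 128 had no count in acRIP, and of the 165 called higher, 33 had none in IgG. For 151 and 49 of them only a bound on the fold can be given. Among the other called genes the median fold was 4.52 for those lower and 4.26 for those higher. The number of all genes with any count was also lowest in the acRIP libraries, as given above, and its part in these zeros was not tested.

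**Figure D4:**
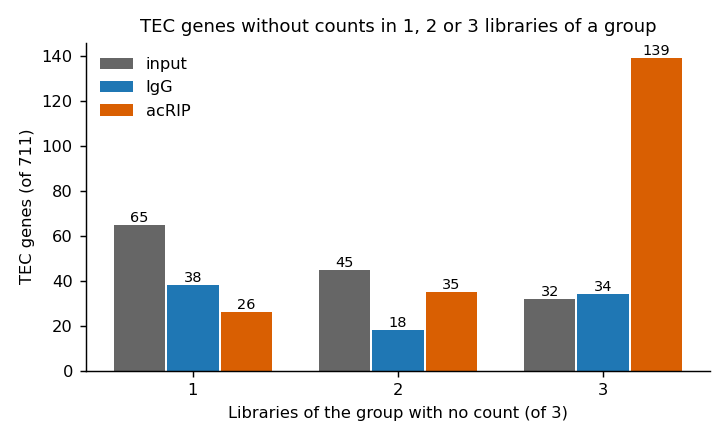
Number of TEC genes (vertical axis, of 711) that had no count in exactly 1, 2 or 3 libraries of a group (horizontal axis), for input, IgG and acRIP. The bar for acRIP at 3 libraries stands at 139, and those for input and IgG at 32 and 34.

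The highest TEC gene in acRIP against IgG was Gm47087, in an intron of Maml2, which encodes a coactivator of Notch signalling. It had 78, 86 and 92 counts in acRIP, 0 in each IgG library and 6, 0 and 2 in input, at least 29.4-fold higher than IgG against the floor of 3 counts (14.7-fold with 6). The exons of Maml2 had 3, 4 and 10 counts in acRIP and 16, 20 and 26 in IgG, so the host differed in the opposite direction (-1.77 ± 0.61, adjusted p = 0.0121). Gm42856, in an intron of Wasl, which encodes the actin regulator N-WASP, had 58, 76 and 81 counts in acRIP, 0 in IgG and 2, 4 and 8 in input, at least 24.6-fold higher than IgG, and Wasl was not called (-0.34 ± 0.13). Gm43648, in an intron of the potassium channel-interacting protein gene Kcnip4, had 58, 42 and 76 counts in acRIP and none in the other 6 libraries. Here the host was also higher, with 54, 58 and 62 counts in acRIP and 35, 32 and 22 in IgG (1.01 ± 0.35, adjusted p = 0.0123).

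Gm42872 lay in an intron of Tbck by GENCODE, but 97.3% of its bases lay in RefSeq exons of Tbck on the same strand. It had 76, 54 and 44 counts in acRIP and 0 in IgG, while Tbck had 30, 38 and 42 counts in acRIP and 102, 106 and 150 in IgG (-1.64 ± 0.23). Gm48624, in an intron of Cdk13, whose kinase acts on RNA polymerase II, had 60, 34 and 42 counts in acRIP and 0 in IgG, and Cdk13 was not called (0.37 ± 0.11). Gm43197 (64, 57 and 66 counts), Gm48077 (30, 71 and 69, on the opposite strand of Pald1) and Gm42870 (40, 44 and 56) had no count in IgG either, and Gm43197 lay wholly in RefSeq exons of Gm20559 on its strand. Over these 8 genes the bound ran from 15.9- to 29.4-fold with a floor of 3 counts. Their input counts lay between 0 and 8, and all 8 entered the class through their acRIP counts, since they had 0 to 14 counts in the other 6 libraries together. Their values are therefore given as a description, without a test.

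Where at least 10 counts stood in every library, the highest were 5330406M23Rik and 1700074A21Rik, both in none of the named positions. 5330406M23Rik had 18, 10 and 18 counts in input, 10, 10 and 12 in IgG and 85, 104 and 140 in acRIP, and was higher in acRIP than in IgG by 3.41 ± 0.37 (log2, SE, adjusted p = 2.86e-09, edgeR) and than in input by 3.46 ± 0.35. 1700074A21Rik had 52, 32 and 25 counts in input, 11, 16 and 14 in IgG and 66, 114 and 69 in acRIP, a difference of 2.65 ± 0.36 from IgG. In both genes each acRIP library lay above the other 6.

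The lowest in acRIP against IgG was Gm45223, in an intron of the clathrin assembly gene Picalm. It had 100, 127 and 164 counts in IgG, 44, 24 and 36 in input and 0 in acRIP, at least 41.1-fold lower (20.6-fold with a floor of 6; adjusted p = 7.36e-13, edgeR). Picalm itself had 1853, 1767 and 1982 counts in acRIP and was higher there than in IgG by 0.44 ± 0.07. Gm43200, in an intron of Lcorl by GENCODE but with 64.7% of its bases in RefSeq exons of Lcorl on the same strand, had 42, 169 and 120 counts in IgG, 46, 24 and 45 in input and 0 in acRIP, at least 33.6-fold lower. Its neighbour Gm43201, in another stretch of the Lcorl introns, had 135, 198 and 222 counts in IgG and 31, 25 and 22 in acRIP, a difference of -2.74 ± 0.26 (adjusted p = 2.29e-10). Lcorl, a gene of a nuclear receptor corepressor-like protein, was higher in acRIP than in IgG by 0.42 ± 0.09 and was not called.

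4930477O15Rik, in an intron of Tmem116, had like counts in input (94, 110 and 78) and IgG (78, 98 and 121) and none in acRIP, at least 31.3-fold lower. Tmem116 was lower as well, with 232, 229 and 175 counts in acRIP and 431, 580 and 552 in IgG (-1.23 ± 0.11). Gm43748, just downstream of Agbl3 by GENCODE and wholly within RefSeq exons of Agbl3 on the same strand, had 82, 34 and 110 counts in IgG and 0 in acRIP, and Agbl3, which encodes an enzyme that trims tubulin tails, was not called (-0.18 ± 0.06). Gm37456 (opposite Spag16, a component of the sperm axoneme), Gm44729 (opposite Sephs2), Gm38218 (downstream of Acadl) and Gm42432 (in an intron of Map4) had 28 to 82 counts in each IgG library and 0 in acRIP. Without their IgG counts Gm37456 and Gm42432 would have had 52 and 47 counts and missed the threshold, and the other 6 would have kept 70 to 282. These 8 genes had counts in each input library, between 10 and 110.

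**Figure D5:**
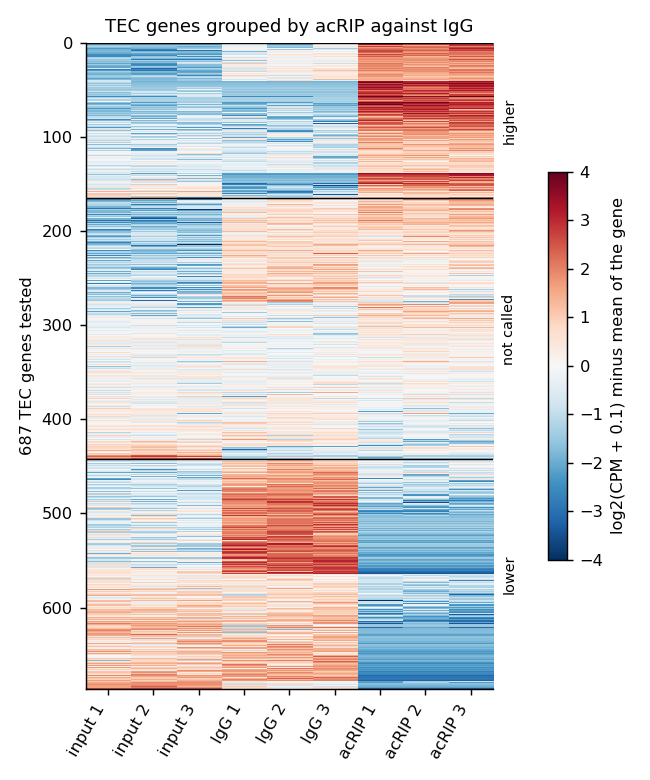
Values of the 687 TEC genes tested (rows) in the 9 libraries (columns), as log2(CPM + 0.1) minus the mean of the gene, with red above and blue below the mean. Black lines part the 165 genes called higher in acRIP than in IgG, the 278 not called and the 244 called lower, and the 3 libraries of a group resemble each other in all 3 blocks.

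In acRIP against input, 255 TEC genes (37.1%) were higher, where 17.7% of all genes tested were, and 185 (26.9%) were lower, where 22.9% were. The median log2 difference was 0.50, against -0.10 over all genes. Fitted on the 6 acRIP and input libraries alone, 106 were lower in place of 185, and with all counts halved 102 were. At like counts the share of TEC genes called higher lay above, and the share called lower lay below, those of lincRNA and protein-coding genes. With a sum of 60 to below 200, 36.5% of the TEC genes were higher and 34.1% lower, against 20.5% and 51.6% of lincRNA genes and 17.5% and 56.2% of protein-coding genes. From 200 to below 1000 they were 43.2% and 20.8%, against 20.6% and 30.2% and 23.8% and 33.6%, and from 1000 upwards 19.7% and 9.86%, against 8.67% and 13.5% and 13.0% and 11.5%. Of the 255 called higher, 123 would have been under 60 counts without the acRIP libraries. Of the 185 called lower, 75 would have been so without the input libraries. Among the 355 TEC genes with at least 60 counts without any 1 group, 121 (34.1%) were higher and 65 (18.3%) lower. This comparison and that of IgG with input share the 3 input libraries. Of the 274 genes higher in IgG than in input, 133 were also called higher in acRIP than in input and 122 were called lower in acRIP than in IgG. Over all genes tested, picked by no call, the shares were 17.7% and 20.9%. The 274 were picked for high IgG and low input values, and both counts reuse those libraries, so the choice favours them. Without the IgG libraries 127 of the 274 would have been under 60 counts. The highest were Gm37383, in an intron of the centrosomal gene Cep350, with 90, 44 and 52 counts in acRIP and 0 in input, and Gm43648 and Gm48077, already named, Gm38065, opposite Kcnq1, with 39, 54 and 66 counts, and Gm38230, in an intron of the malic enzyme gene Me1, with 58, 43 and 48. None of these 5 had a count in input, and the bound ran from 25.3- to 31.9-fold. They too entered the class through acRIP, with 0 to 10 counts elsewhere.

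The lowest in acRIP against input was Gm10176, on the opposite strand of the dynamin gene Dnm3, with 181, 141 and 136 counts in input, 21, 22 and 28 in IgG and 0 in acRIP, at least 32.9-fold lower. Gm43460, wholly within RefSeq exons of Pan3, had 106, 69 and 64 counts in input and Gm44243, in an intron of the autophagy gene Gabarapl1, 71, 31 and 55, and both had 0 in acRIP. Of the TEC genes that reached 10 counts in each library, 5330431K02Rik, in an intron of Map1b, had 16, 10 and 12 counts in input, 24, 46 and 28 in IgG and 113, 114 and 134 in acRIP. It was higher in acRIP than in input by 3.87 ± 0.33 and than in IgG by 1.96 ± 0.29 (adjusted p = 1.01e-06, edgeR). A930004J17Rik, in an intron of the splicing factor gene Srsf4, had 26, 14 and 26 counts in input, 69, 58 and 72 in IgG and 162, 176 and 180 in acRIP. The exons of Srsf4 had 243, 197 and 177 counts in input, 38, 65 and 48 in IgG and 51, 22 and 27 in acRIP. Srsf4 was called lower than input in both recovered fractions, and was not called between acRIP and IgG (-0.50 ± 0.30).

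Genes past the limits in acRIP against both controls numbered 144 (21.0%) on the high side, where 7.88% of all genes tested were, and 168 (24.5%) on the low side, where 17% were. With each comparison fitted on its own 6 libraries the low side held 58 genes, and with counts halved 89. With a sum of 60 to below 200, the high side held 21.9% of TEC, 15.7% of lincRNA and 11.8% of protein-coding genes. From 200 to below 1000 these shares were 25.3%, 15.0% and 13.9%. From 1000 upwards the TEC share was the lowest, at 1.41% (1 of 71 genes) against 3.37% and 2.11%. At like counts the low side held a smaller share of the TEC genes than of others: 32.5% against 46.6% of lincRNA and 50.4% of protein-coding genes with a sum of 60 to below 200, 17.8% against 25.2% and 28.8% from 200 to below 1000, and 4.23% against 6.26% and 5.66% from 1000 upwards. Of the 355 TEC genes with at least 60 counts without any 1 group, 47 were higher and 55 lower than both. On the high side 81 of the 144 were intronic, and on the low side 64 of the 168. In no comparison were 125 of the 687 called.

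The TEC genes in introns were set against their hosts, whose counts come from annotated exons. RefSeq draws some of these exons longer, and 11 of the 307 intronic TEC genes had at least 50% of their bases in RefSeq exons of a protein-coding gene on their strand. Of 288 intronic TEC genes with a tested host, in 238 hosts, 162 were higher in IgG than in input. The host was called higher for 33 of these, was not called for 125 and was called lower for 4, and the medians of the log2 differences were 2.72 for the TEC genes and 0.23 for their hosts. Of 82 higher in acRIP than in IgG, the host was called higher for 1, not called for 67 and called lower for 14 (medians 3.75 and -0.12). Of 111 lower in acRIP than in IgG, the host was called lower for 9, not called for 101 and called higher for 1. The TEC genes in these medians were picked by their calls and the hosts were not. That choice by itself favours larger medians in the TEC genes, and its part in them was not tested. Over all 288 the medians in IgG against input were 1.73 for the TEC genes and 0.15 for the hosts. In acRIP against IgG they were -0.45 and -0.10. A call on an intronic TEC gene thus mostly stood without a call on the exons of its host. Most genes had no call in either comparison. Over all genes tested, 13.5% were higher and 7.22% lower in IgG than in input. For acRIP against IgG these shares were 11.5% and 20.9%. A read of unspliced host RNA that falls inside such a TEC gene is counted for the TEC gene, so the RNA of both cannot be told apart here.

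TEC genes of 1 host also differed among themselves. Ctnna2, the gene of a neuronal catenin, held 4. Gm44433 had 28, 32 and 30 counts in IgG and 0, 2 and 0 in acRIP, and Gm44286 and Gm44235 likewise had 12 to 39 counts in IgG and 0 in acRIP. 6330415B21Rik, in the same gene, had 6, 20 and 30 counts in IgG and 52, 48 and 56 in acRIP, and was higher in acRIP than in IgG by 1.59 ± 0.48 (adjusted p = 0.00483, edgeR). All 4 had 0 to 8 counts in the input libraries and an A-rich window after the end. Gm44433, Gm44286 and Gm44235 entered the class through their IgG counts, so their values are a description, without a test. Ank2, which encodes the membrane adaptor ankyrin-B, held 5: Gm42973, wholly within RefSeq exons of Ank2, had 39, 40 and 38 counts in input, 0, 0 and 6 in IgG and 0 in acRIP, whereas Gm42971 had 6, 24 and 10 in IgG and 0 in acRIP, and Gm43765 had 16 to 22 in IgG and 6 to 12 in acRIP. Gm42973 entered the class through its input counts, so its values are a description as well.

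Single libraries seldom held most of a gene. The largest shares of a sum in 1 library were 54.4% (Gm43482, 37 of its counts in IgG replicate 3), 53.1% (Gm48231, 34 counts in IgG replicate 1) and 52.3% (Gm47024, 46 counts in IgG replicate 3).

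Sequence features of the whole gene were also compared, without a test. The median content of C was 21.3% in the 711 genes and 20.7% in the other TEC genes, and it was 21.2% in those called higher in acRIP than in IgG, 20.7% in those called lower and 22.2% in those not called. The C-rich motif CNCAGNNC, searched on the strand of the gene, was found in 85.9% of the 711 at 1.34 per kb and in 80.9% of the other TEC genes at 1.21 per kb. It occurred at 1.25 per kb in the genes called higher in acRIP than in IgG at 1.27 per kb in those called lower and at 1.48 per kb in those not called. TCCCAGCT was found in 59 genes (8.30%), in 11.5% of those higher and 8.20% of those lower in acRIP than in IgG, in 6.84% of those not called, and in 6.91% of the other TEC genes. In IgG against input it was in 5.47% of the genes higher, 16.7% of those lower (8 of 48) and 9.59% of those not called. An A-rich window after the end was present in 45.5% of those higher and 48.4% of those lower in acRIP than in IgG, against 36.3% of those not called.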

How the data were processed

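Input, IgG and acRIP libraries of polyadenylated testis RNA (3 each) were analysed. The authors deposited counts of uniquely mapped reads per gene, without normalization. Per the submitters' processing notes, reads were trimmed with Trim Galore 0.6.7, mapped with STAR 2.7.10a to mm10 and counted with featureCounts 2.0.2, and the paper's methods name 151-base paired-end reads. Which annotation release was used, whether strand was taken into account and whether each mate was counted are not given in the sources used here. Samples were grouped by their labels.

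Gene types were taken from GENCODE vM21 by gene ID (55141 of 55401 genes matched), and the coordinates of the 711 TEC genes were the same there. The members and the gene lists were chosen with earlier results of these data known. Counts were fitted with edgeR 4.0.16 (R 4.3.3) over the 9 libraries of the 3 groups, with filterByExpr, TMM normalization, the quasi-likelihood test and Benjamini-Hochberg adjustment over 22510 genes, and the procedure was tested on simulated data. CPM were counts per 1000000 of the library size over the genes tested, multiplied by its TMM factor. The heat map and the values per kilobase used the plain library total instead. DESeq2 1.42.0, other normalizations, filters and thresholds were alternatives. Bounds used a floor of 3 counts per library, or 6 if both mates were counted. The floors take in counting error and nothing else, because PCR copies of 1 molecule are counted separately. Named TEC genes were the called ones with non-overlapping groups that had the highest and lowest values (8 each for acRIP against IgG, 5 each for the other comparisons), the 10 highest in mean CPM, the 3 on either side of the threshold and those with the largest share in 1 library, with their host genes. Others were named after their values were seen. RefSeq exons and sequences were those of GRCm38.p6.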

Additional observations from a re-analysis of the deposited data

How the results depend on the processing

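The counts of TEC genes called moved by less than 1.5 times under DESeq2, other normalizations, other filters on low counts, a threshold of 30 counts and the omission of ribosomal RNA-like and mitochondrial genes. With each comparison fitted on its own 6 libraries, the genes lower in acRIP than in input numbered 106 in place of 185, and those lower than both controls 58 in place of 168. With counts halved, 141 were lower in acRIP than in IgG, 102 than in input and 89 than both. With glmTreat against 2-fold, 173 were higher and 15 lower in IgG than in input. The cause of these shifts was not tested.

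Other definitions of the class hold fewer genes by construction. With a threshold of 120 counts, 129 were lower in acRIP than in IgG, 103 than in input and 91 than both, and 181 were higher in IgG than in input. With TEC genes that overlap no other gene, acRIP against IgG gave 34 higher and 55 lower, acRIP against input 44 and 54, acRIP against both 25 and 47, and IgG against input 37 and 12. Of the 185 tested these were 18.4% and 29.7%, 23.8% and 29.2%, 13.5% and 25.4%, and 20% and 6.49%. Over all genes tested the shares were 11.5% and 20.9%, 17.7% and 22.9%, 7.88% and 17%, and 13.5% and 7.22%. The next 3 definitions were chosen after seeing the data. With at least 1 count in every library the same counts were 74 and 66, 140 and 42, 58 and 29, and 139 and 18. Of the 375 tested these were 19.7% and 17.6%, 37.3% and 11.2%, 15.5% and 7.73%, and 37.1% and 4.8%. Here the shares lower in acRIP lay below those of all genes. By construction this definition leaves out genes with no count in a group. With no A-rich window after the end the counts were 90 and 126, 119 and 119, 74 and 104, and 105 and 31. Of the 393 tested these were 22.9% and 32.1%, 30.3% and 30.3%, 18.8% and 26.5%, and 26.7% and 7.89%. With at least 60 counts without any 1 group the counts were 65 and 78, 121 and 65, 47 and 55, and 125 and 18. Of the 355 tested these were 18.3% and 22.0%, 34.1% and 18.3%, 13.2% and 15.5%, and 35.2% and 5.07%.

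The share of counts on the class in input, IgG and acRIP was 0.167%, 0.233% and 0.246% with ribosomal RNA-like and mitochondrial genes left out of the total, 0.0696%, 0.0836% and 0.0842% for TEC genes that overlap no other gene, and 0.158%, 0.206% and 0.206% without 1700097M23Rik.

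Leaving out 1 library at a time gave 156 to 167 higher and 240 to 257 lower genes for acRIP against IgG, 248 to 260 and 169 to 188 for acRIP against input, 134 to 145 and 156 to 168 against both, and 247 to 283 and 35 to 47 for IgG against input. The shares ran from 0.164 to 0.166% in input, 0.214 to 0.220% in IgG and 0.214 to 0.218% in acRIP.

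With the replicate number as a block, acRIP against IgG gave 164 higher and 240 lower genes, against input 249 and 176, against both 141 and 160, and IgG against input 261 and 42. Deviations of libraries with the same number correlated between -0.01 and 0.05, so the numbers were not used to pair libraries. Of the values for single named genes under the alternatives, 74 lost and 8 gained a call, and none changed sign while called. Depth limits the genes near 60 counts, where a few read pairs per library decide a call.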
